A study of Mus musculus with 6 samples.

Results

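The regions described here were nearly without reads in WT cells and accessible in dKO cells, where both Cebpa and Cebpb had been deleted. They were chosen by their WT value: a region entered when the authors' mean over the WT libraries was at or under 1.43 on the log2 scale, about 3 reads per library, whatever its dKO value. Of 10016 regions in the authors' deposited table, 202 met this rule, or 2.02%. All 202 lay higher in dKO, which the choice of regions together with the table's own threshold brings about, and the sizes of the differences are therefore given as a description without a test.

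ATAC-seq, in which the Tn5 transposase cuts open DNA and inserts sequencing adapters, was applied to mouse cells from fetal liver that MLL-ENL had transformed (a fusion oncogene of acute leukaemia). The series holds 3 groups of 2 libraries each. WT libraries came from transformed cells in which the floxed Cebpa and Cebpb alleles were intact, and their labels name no vector. The dKO libraries came from transformed cells with Cebpa KO and Cebpb KO that carried a GFP vector. The dKO lines were grown from single colonies, so that differences between clones and the vector are part of the same comparison and cannot be told apart from the genotype. All groups were cultured with interleukin 3. The dKO-LAP* libraries, from dKO cells that expressed a rat C/EBPβ isoform, were not analysed here. Group means over 2 libraries were the levels at hand, so no standard deviation or replicate test could be computed here. The authors' own test of each region was not used, and the depth of the single libraries is unknown. In a bulk culture, a region open in some cells and a region partly open in all cells cannot be told apart.

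C/EBPα and C/EBPβ are basic leucine zipper transcription factors that direct myeloid differentiation, and they can bind DNA that is packed in closed chromatin. AP-1, made of FOS and JUN proteins, belongs to the same superfamily of zipper proteins but reads other letters. PU.1 is the ETS factor on which myeloid enhancers depend, RUNX factors work beside it, and GATA factors serve stem, mast, erythroid and megakaryocyte cells. Accessible regions away from promoters are often enhancers, where several of these factors bind side by side.

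The sequences show what opened in dKO cells. Each is the central 200 bp of a region on the plus strand, read 5′ to 3′ from the RefSeq assembly GRCm38.p6, whose chromosomes are those of mm10. Capitals mark matches, on either strand, to 5 motifs. For AP-1 the letters searched were TGACTCA. For PU.1 they were GAGGAAGT, and for RUNX factors the search used AACCACA. C/EBP sites were taken as TTGCNNAA or TTACNNAA. For GATA factors the letters were AGATAAG. The first is the region with the highest dKO value, in an intron of Erg, and it holds none of the 5 motifs. Then come the regions of highest dKO value with each motif, in the order AP-1, C/EBP, GATA, RUNX and PU.1, and last a region upstream of Gata2.
Erg, chr16:95434612-95434811: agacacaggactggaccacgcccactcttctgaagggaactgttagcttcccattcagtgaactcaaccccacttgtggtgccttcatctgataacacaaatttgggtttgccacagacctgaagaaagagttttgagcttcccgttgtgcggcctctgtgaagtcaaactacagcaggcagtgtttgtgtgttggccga
Uhrf2, chr19:30113395-30113594: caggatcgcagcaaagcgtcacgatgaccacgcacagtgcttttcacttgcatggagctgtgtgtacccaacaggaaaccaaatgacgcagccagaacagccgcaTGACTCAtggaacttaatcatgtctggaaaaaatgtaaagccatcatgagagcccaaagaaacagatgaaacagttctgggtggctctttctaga
Dnal1, chr12:84130057-84130256: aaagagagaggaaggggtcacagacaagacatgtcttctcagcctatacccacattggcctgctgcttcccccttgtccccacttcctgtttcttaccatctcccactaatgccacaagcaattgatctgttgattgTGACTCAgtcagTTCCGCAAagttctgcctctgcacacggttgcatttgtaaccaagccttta
Foxn2, chr17:88431537-88431736: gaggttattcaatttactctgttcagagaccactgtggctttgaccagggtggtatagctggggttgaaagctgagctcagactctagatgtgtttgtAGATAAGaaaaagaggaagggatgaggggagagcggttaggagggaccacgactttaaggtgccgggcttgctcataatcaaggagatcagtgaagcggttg
Gm37997, chr19:14663437-14663636: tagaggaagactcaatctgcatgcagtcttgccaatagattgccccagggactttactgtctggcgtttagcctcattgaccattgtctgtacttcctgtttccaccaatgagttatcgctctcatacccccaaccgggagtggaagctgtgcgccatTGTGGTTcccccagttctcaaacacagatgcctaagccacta
Gm3011, chr9:23669304-23669503: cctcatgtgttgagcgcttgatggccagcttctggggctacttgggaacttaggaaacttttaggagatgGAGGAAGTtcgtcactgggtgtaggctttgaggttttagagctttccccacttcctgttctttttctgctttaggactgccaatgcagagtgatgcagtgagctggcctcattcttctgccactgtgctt
Gata2 upstream, chr6:88176356-88176555: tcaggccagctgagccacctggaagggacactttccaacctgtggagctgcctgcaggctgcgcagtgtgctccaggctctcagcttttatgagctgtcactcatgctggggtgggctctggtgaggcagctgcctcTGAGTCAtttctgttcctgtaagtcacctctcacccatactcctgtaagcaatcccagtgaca
Uhrf2 and Gata2 each show 1 AP-1 match, as TGACTCA and as its reverse complement TGAGTCA, which differ in the central letter alone. The Dnal1 window carries an AP-1 match and a C/EBP match close together. A match is a string of letters, and binding was not measured.

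In WT cells the regions took 12 values, because so few reads leave only steps. The lowest was -0.15, the level of 1 read in each library, where the table's values end, so 0 reads and 1 read cannot be told apart. At that level stood 46 of the 202 regions, or 22.8%. The next steps with most regions were 0.77 with 34 regions, 0.93 with 25 and 1.33 with 20. The highest WT mean among the 202 was 1.38, held by 4 regions. The first value outside the rule was 1.44, which by the steps is also about 3 reads per library, so that with these regions the set would hold 219. The 17 regions there had dKO means from 4.21 to 5.54 around a median of 4.78, so the boundary runs through a continuous range. Just inside it lay Gm48880 with a WT value of 1.38 and a dKO value of 5.58, Gm37997 with 1.38 and 5.17, Slc8a1 with 1.38 and 4.90, Gm13320 with 1.38 and 4.37, and Nsd1 with 1.33 and 5.45. Just outside, all at a WT value of 1.44, lay Gm46142 with a dKO value of 5.54, Gm17909 with 5.54, Gm26662 with 5.53, Gm12691 with 5.47 and Gm11525 with 5.06.

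In dKO cells the same regions were open at a moderate level. Their dKO means ran from 3.90 to 6.67 on the log2 scale, around a median of 4.84 (quartiles 4.51 and 5.28), which is 14.9 to 102 normalised reads with a median of 28.6. The other 5833 regions higher in dKO had a median dKO value of 6.28. Of the 202 regions, 115 lay between 4 and 5 on the log2 scale, 80 between 5 and 6, and 5 at 6 or more. The fold change is a bound, computed against the WT threshold of 1.43. The median bound was 10.6-fold, or 3.41 on the log2 scale, and the bounds ran from at least 5.54-fold to at least 37.8-fold. A bound of 8-fold or more was reached by 160 of the 202 regions, or 79.2%, beside 5.53% of all listed regions held to the same rule. This share follows from the choice of the regions and nothing is read from it.

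**Figure D1:**
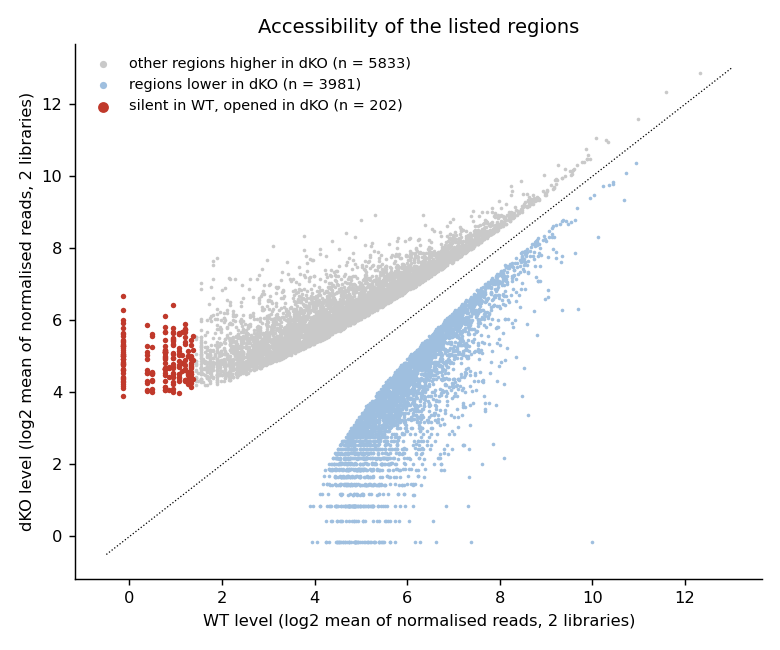
Scatter plot of the authors' WT mean (x axis) and dKO mean (y axis) of each of the 10016 listed regions, both as the log2 mean of normalised reads over 2 libraries. The 202 regions (red) stand in columns at the left edge between dKO values of 3.90 and 6.67. The dotted line marks equal values, and no region lies along it because the table lists changed regions alone.

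The dKO value hardly followed the WT value within the set. At the lowest WT level the dKO median was 5.01 over 46 regions and the range 3.90 to 6.67. It was 4.97 over the 34 regions at a WT value of 0.77, 4.96 over the 25 regions at 0.93 and 4.70 over the 20 regions at 1.33. The highest step median was 5.34, at a WT value of 1.20 with 15 regions, and the lowest was 4.54, at 1.26 with 10 regions. These ranges overlapped throughout. The rule limits the WT value to these few low steps, and the table's own threshold limits the dKO value from below. A relation could therefore hardly show, and nothing is read from its absence.

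**Figure D2:**
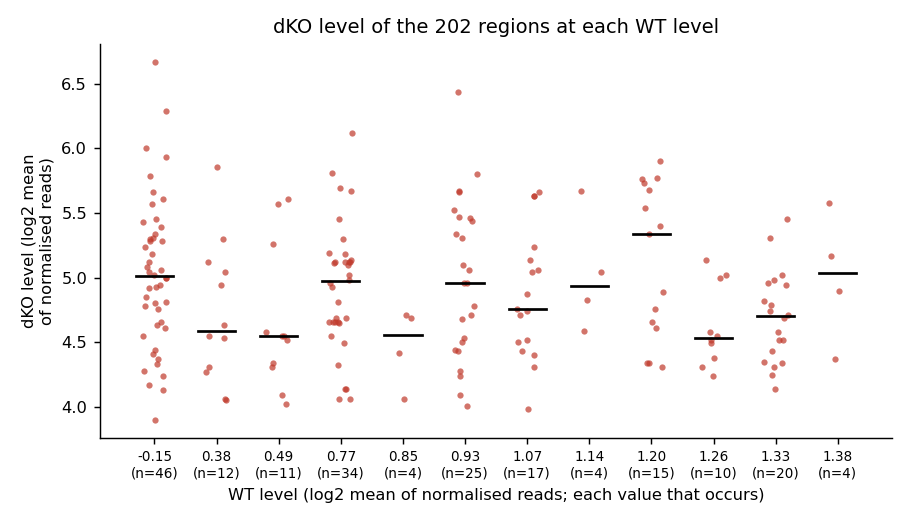
Strip plot of the dKO value (y axis, log2 mean of normalised reads) of the 202 regions, 1 point each, at every WT value that occurs (x axis, same unit), with the number of regions under each and a black bar for the median. The points overlap at all steps, and the medians lie between 4.54 and 5.34.

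The region with the highest dKO value lay in an intron of Erg, which encodes an ETS factor of haematopoietic stem cells, at chr16:95434551-95434873 (mm10). Its WT mean was -0.15 and its dKO mean 6.67, at least 37.8-fold higher against the threshold. A region 1736 bp away, also in an intron of Erg, was already open in WT, at 5.88, and stood at 7.57 in dKO. The lowest WT level thus occurred next to an open region of the same gene. A further region 4265 bp away went from 2.00 to 6.85, and one 14308 bp away from 3.47 to 5.47.

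Next in order stood a region whose nearest start site is that of Uhrf2 and which lies in an intron of Gldc, the glycine decarboxylase gene, with a WT value of 0.93 and a dKO value of 6.44. Dnal1, for an axonemal dynein light chain, held an intronic region at -0.15 in WT and 6.29 in dKO. Nearest to the lincRNA gene AC129309.1 lay an intergenic region at 0.77 and 6.12. The region 8883 bp upstream of Foxn2, a forkhead gene, went from -0.15 to 6.00. With Erg, these were the 5 regions with a dKO value of 6 or more. An exon of Hk1, the hexokinase 1 gene, followed with -0.15 and 5.93, in chr10:62286322-62286645. The remaining 14 of the 20 highest had dKO values from 5.66 to 5.90. They lay at Gm37997, Loxl3, Ptprr (2 regions), Nos1ap, Slc38a9, Gm19233, Gm10811, Efcab12, Stam, Sgk3, Gtf3c3, Gm42887 and Gm11184. Ptprr encodes a receptor-type tyrosine phosphatase, Slc38a9 a lysosomal amino acid transporter, and Stam an adaptor of endosomal sorting.

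Several genes held a pair of such regions. In Ptprr, 2 intronic regions 16500 bp apart went from -0.15 to 5.79 and from 0.77 to 5.81. Between and around them lay 5 further listed regions within 50 kb of the first, all higher in dKO and all open in WT at 3.88 to 5.98. Lin28b, which encodes an RNA-binding protein of fetal blood formation that blocks let-7 maturation, had a region 316 bp inside a start site that went from 1.07 to 5.63. Its second region, 14814 bp away, went from 0.77 to 4.93. A region over a start site of Lin28b did not meet the rule, at 2.97 in WT and 7.67 in dKO, and the other listed regions within 50 kb stood at 2.79 to 4.39 in WT. By the transcript Gm37997, 2 regions 3272 bp apart went from 1.20 to 5.90 and from 1.38 to 5.17. The nearest protein-coding start site, that of the Groucho-type corepressor gene Tle4, lay 65325 bp and 61762 bp from them. Stam had 2 intronic regions 10273 bp apart, which went from 1.20 to 5.68 and from 1.33 to 5.02. Neither had another listed region within 50 kb.

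Gata2, whose product maintains stem cells and mast cells, had 2 regions upstream. The one 17273 bp from the start site of the gene, at chr6:88176294-88176618, went from -0.15 to 5.12. The other, 11800 bp upstream, went from 1.07 to 4.71. Around them a region at chr6:88174176-88174502 went from 3.73 to 5.31, one at chr6:88184756-88184990 from 1.89 to 4.49, and the region over a start site of Gata2 from 5.00 to 6.53. The 2 distal regions thus had nearly no reads in WT cells while a start site was open in both groups.

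**Figure D3:**
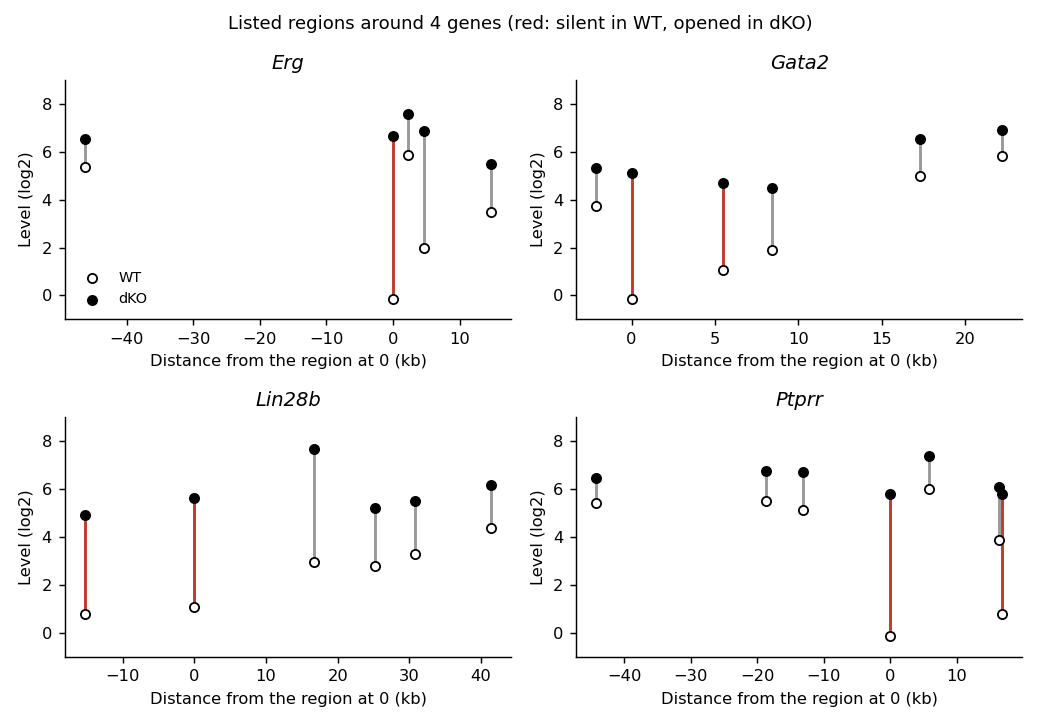
Dot plots of the listed regions around Erg, Gata2, Lin28b and Ptprr, with the distance in kb from the centre of 1 of the 202 regions on the x axis and the level (log2 mean of normalised reads) on the y axis. Open circles are WT means, filled circles dKO means, and the line between them is red for the 202 regions and grey for other listed regions. In Erg and Ptprr a red line that starts at -0.15 stands beside grey lines that start at 5.88 and 5.98.

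By gene list, the regions were few in each. Assigned to the nearest start site of any transcript, 8 of 202, or 3.96%, belonged to the 350 genes of 10 lists, beside 2.13% of all listed regions. Assigned to the nearest protein-coding start site there were 18, or 8.91%, beside 4.39%, and by gene body with 10 kb on either side 7, or 3.47%, beside 2.94%. By the nearest protein-coding start site, haematopoietic transcription factors were the list with most, 10 regions at 9 genes, or 4.95% of the 202 beside 1.71% of all listed regions. By the nearest start site of any transcript, and by gene body, 2 regions remained, those of Erg and Tcf4, or 0.990% beside 0.619% and 0.789%. Besides Erg and the 2 Gata2 regions they were those nearest to Prdm1 (dKO value 5.44), Tcf4 (5.08), Gfi1 (5.06), Klf4 (4.94), Sox4 (4.80), Myb (4.43) and Klf6 (4.02). These genes encode repressors, activators and E proteins that set blood cell fate. Distances were long for some, 45297 bp upstream for Myb, 127076 bp for Sox4 and 494132 bp for Klf4, so that the gene is a neighbour and no more.

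The other lists gave few regions, counted here by the nearest protein-coding start site. Of the 202 regions and of all listed regions, the shares were 1.49% and 0.180% for mast cell genes, 0.495% and 0.399% for HOX and MLL target genes, 0.495% and 0.200% for AP-1 genes, 0.990% and 0.799% for adhesion genes, and 0.990% and 0.619% for cytokine genes. These shares of the 202 stand for 1 to 3 regions each, and nothing is read from them. The 3 mast cell regions lay at Kit, the receptor of stem cell factor, where an intronic region went from 1.26 to 4.52, and at Gata2. An intron of Mef2c, an MLL fusion target, went from 0.77 to 4.66. The AP-1 list was met once, 36035 bp upstream of Fos, from 0.93 to 4.96. Integrin subunit genes gave an exonic region of Itgb5, from -0.15 to 5.18, and a region 9327 bp upstream of Itgav, from 0.93 to 4.44. The chemokine gene Ccl5 had an intronic region at -0.15 and 4.61, and Tnfsf8, for the CD30 ligand, a region 37876 bp upstream at 1.33 and 4.96. The neutrophil and monocyte list was met at Klf4 alone, and the C/EBP family and lymphoid lists by no region of the 202. These 3 lists also held few of all listed regions, 0.310%, 0.0599% and 0.150%, so that nothing is read from the low counts.

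Few of the regions were promoters. Of the 202, 14.4% (95% Wilson interval 10.2 to 19.9) lay within 1 kb of an annotated start site and 3.47% over one. The other regions higher in dKO gave 18.2% and 10.7%. Since the 202 lay at the low end of the dKO values, the 1955 of the others whose dKO value lay in the range of the 202, from their 5th to their 95th percentile (4.09 to 5.79), serve as the closer comparison. Their median dKO value was 5.28 (quartiles 4.96 and 5.53), still above the 4.84 of the 202, so the level is limited in range but not matched. They gave 12.3% (10.9 to 13.8) within 1 kb and 4.81% over a start site, with intervals that overlap those of the 202. By the position of the centre, 105 of the 202 regions were intronic (52.0%), 84 intergenic (41.6%) and 13 exonic (6.44%), beside 47.3%, 45.0% and 7.72% of the 1955. The median distance to the nearest start site was 8920 bp, beside 9737 bp. Over 50 kb from a protein-coding start site lay 23.8%, beside 29.8%. The nearest start site was that of a protein-coding gene for 106 regions (52.5%, beside 50.7%) and of a pseudogene for 33 (16.3%, beside 15.9%). The intervals of all these shares overlap, so that this make-up is not particular to the 202.

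Within 1 kb of a protein-coding start site lay 19 regions. The strongest were at Loxl3, a lysyl oxidase family gene, which went from 0.38 to 5.86, at Efcab12 from 0.77 to 5.69, and at Lin28b. Over a start site lay, among others, the region of Gpr85, an orphan receptor gene, from 0.93 to 5.34, and that of Cdk5r2, an activator of the kinase CDK5, from 0.38 to 5.04. Spns2, which encodes the sphingosine-1-phosphate exporter, went from 1.33 to 5.31 at 337 bp, and Pparg, a nuclear receptor gene, from 0.49 to 4.55 at 318 bp. Ccl9, a myeloid chemokine gene, was covered at its start site by a region that went from 0.85 to 4.42. The others named were 3830403N18Rik with a dKO value of 5.43, Sh2d3c with 4.74, Gm33543 with 4.65, Ccdc162 with 4.55, Yeats2 with 4.55 and March11 with 4.31.

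The regions were narrow. Their median width was 297.5 bp (range 205 to 583), beside 409 bp for the other regions higher in dKO and 319 bp for those in the same range of dKO value. Median GC content was 47.8%, beside 47.4% in the range-limited set. Soft-masked repeat sequence made up a median of 9.68% of a region, and 16 of the 202 regions had most of their length masked. The region in Aff2 was masked in full and went from 0.77 to 4.14. Runs of 25 bases were shared between 2 pairs of the regions, AC129309.1 with AU017674 and Gm42887 with Cldn34c1, and reads from such copies may be placed at either.

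The regions were spread over 20 chromosomes. Chromosome 10 held most, 24 regions or 11.9% (8.12 to 17.1). That chromosome also held 10.4% of the other regions higher in dKO, and 8.44% (7.29 to 9.76) of those in the same range of dKO value, but 3.47% of the regions lower in dKO. It carried 605 other higher against 138 lower regions, so that the uneven split was that of the chromosome and not of the 202 alone. In density, chromosome 19 with 1.95 regions per 10 Mb and chromosome 10 with 1.84 stood above the rest, the next being chromosome 17 with 1.37. Copy number was not tested.

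Most of the regions had company. Within 50 kb, 135 of the 202, or 66.8% (60.1 to 73.0), had another listed region, beside 57.1% (54.9 to 59.3) of the range-limited set and 62.9% (61.6 to 64.1) of the other regions higher in dKO. The first pair of intervals lay apart and the second overlapped. A neighbour that was also higher in dKO was present for 123, or 60.9%, beside 49.3% of the range-limited set and 56.6% of the other regions higher in dKO. A lower one was present for 26, or 12.9%, beside 12.5% and 12.7%, so that lower neighbours were as frequent as elsewhere. The nearest neighbour was higher in dKO in 116 of the 135 cases, or 85.9%, beside 83.6% in the range-limited set, and its median gap was 13494 bp beside 13246 bp. Its WT value was 4 or more for 84 of the 135, or 62.2%, beside 61.7% in the range-limited set. The nearest neighbours were thus much like those of the range-limited set. Within 10 kb, 57 of the 202 or 28.2% (22.5 to 34.8) had a neighbour, beside 25.0% (23.1 to 26.9), and within 100 kb 78.2% (72.0 to 83.4) beside 72.8% (70.8 to 74.7), and at both distances the intervals overlap. Among the 26 regions with a lower neighbour were Dnal1, where a region 9884 bp off fell from 5.53 to 2.55, and Foxn2, where one 17604 bp off fell from 6.10 to 4.90.

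Among short sequences, the AP-1 motif was the one most often met beyond its background. TGACTCA occurred in the central 200 bp of 68 of the 202 regions, or 33.7% (27.5 to 40.4). In windows of the same length 2 kb to either side, outside listed regions, it occurred in 2.26% (1.19 to 4.23) of 399. Of 7207 distinct strings of 7 letters, it ranked first by the difference between these shares. The share was 28.4% (26.4 to 30.4) in the range-limited set, so that the intervals overlap, and 4.65% in regions lower in dKO, while 17.9% of all listed regions held it. Of the 68 regions 47 held 1 match and 21 held 2, which made 89 matches at a median distance of 33 bp from the centre, and 66.3% of them lay within 50 bp of it. The dKO value was alike with and without the motif, with medians of 4.81 and 4.86. The strongest regions with it were those of Uhrf2, Dnal1, Ptprr (both) and Nos1ap. A variant, TGACTAA, which was chosen after its values were seen, occurred in 12.9% of the 202 regions, in 7.67% of the range-limited set and in 2.01% of the windows beside.

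PU.1 letters were less frequent than in the other regions higher in dKO. GAGGAAGT occurred in 8 of the 202 regions, or 3.96% (2.02 to 7.62), beside 14.2% (12.7 to 15.8) of the range-limited set and 13.3% (12.5 to 14.2) of all others higher in dKO, and these intervals do not overlap. The share was near the 3.37% of regions lower in dKO and the windows beside gave 1.00% (0.391 to 2.55), whose interval overlaps that of the 202. In the central 100 bp the share of the 202 was 2.48%. All listed regions together gave 9.17%. The 8 regions had dKO values from 4.01 to 5.66, and among them were those at Gm3011, Cldn34c1, Gm41148, Gm7614, Slc8a1, Mtmr11 and Mvb12b. The broader ETS letters, ACCGGAAG, AGAGGAAG or ACAGGAAG, of which AGAGGAAG overlaps the PU.1 string by 7 letters, went the same way, with 11.4% (7.71 to 16.5) of the 202, 22.9% (21.1 to 24.8) of the range-limited set and 17.3% of all listed regions. For these letters the share of the 202 was 5.94% in the central 100 bp and 16.8% over the whole region. The windows beside gave 6.02% (4.08 to 8.79), whose interval overlaps that of the 202. Related strings of 7 letters, picked after their values were seen, stood above the windows. GGAAGTG occurred in 14.9% of the 202, 2.76% of the windows and 21.0% of the range-limited set. For GAGGAAG the shares were 17.8%, 7.77% and 28.6%. These shorter strings were thus below the range-limited set but not at the level of the windows. No region of the 202 held both an AP-1 and a PU.1 match, and with 8 PU.1 regions in all nothing is read from this. By the limit of 3 counts, 0 of 202 allows a share of up to 1.49%.

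C/EBP letters were not frequent in these regions. They occurred in 14.9% (10.6 to 20.4) of the 202, beside 21.1% (19.3 to 22.9) of the range-limited set and 18.8% (15.3 to 22.9) of the windows beside, with overlapping intervals. In regions lower in dKO the share was 40.7% (39.2 to 42.3), and in all listed regions 28.4%. RUNX letters occurred in 13.4% (9.35 to 18.7), beside 14.7% (13.2 to 16.3) of the range-limited set, 11.9% of all listed regions and 5.51% of the windows beside. GATA letters were rare, in 12 of 202 or 5.94% (3.43 to 10.1), beside 3.07% (2.39 to 3.93) of the range-limited set, 2.50% of all listed regions and 1.25% (0.536 to 2.90) of the windows beside. The intervals of the first pair overlap, and those of the 202 and the windows do not. In the central 100 bp the share of the 202 was 2.97%. The 12 lay at Foxn2, Galntl6, Otos, Spns2, Mir5623, Specc1l, Gm37997, Gm29340, Cxcl13, Gsk3b, Aldh3a2 and Gm27529. Of the regions, 40.1% held none of the 5 motifs, among them the Erg region.

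Of the 23 motifs searched, PU.1 and the broader ETS letters were the 2 whose intervals in the 202 regions and in the range-limited set lay apart, and 21 had intervals that overlap. KLF letters, CCNCACCC, occurred in 6.44% of the 202 regions, 10.2% of the range-limited set and 9.99% of all listed regions. The E-box CAGATGG, read by E proteins and their partners, occurred in 7.92%, 4.55% and 4.84%. GGAAAA, the core of NFAT sites, occurred in 17.3%, 13.8% and 12.8%, and TGACAG, read by MEIS proteins, in 17.8%, 18.8% and 18.5%. NF-κB letters, GGGNNTTCC, occurred in 4.95%, 3.22% and 3.31%. In the windows beside the 202, the shares were 5.76% for KLF, 4.76% for CAGATGG, 12.8% for TGACAG and 3.51% for NF-κB letters. For GGAAAA the windows gave 18.3%, so that its share in the 202 was at their level. No match to the CTCF letters AGGGGGCGC was found in the 202 regions, beside 0.102% of the range-limited set.

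**Figure D4:**
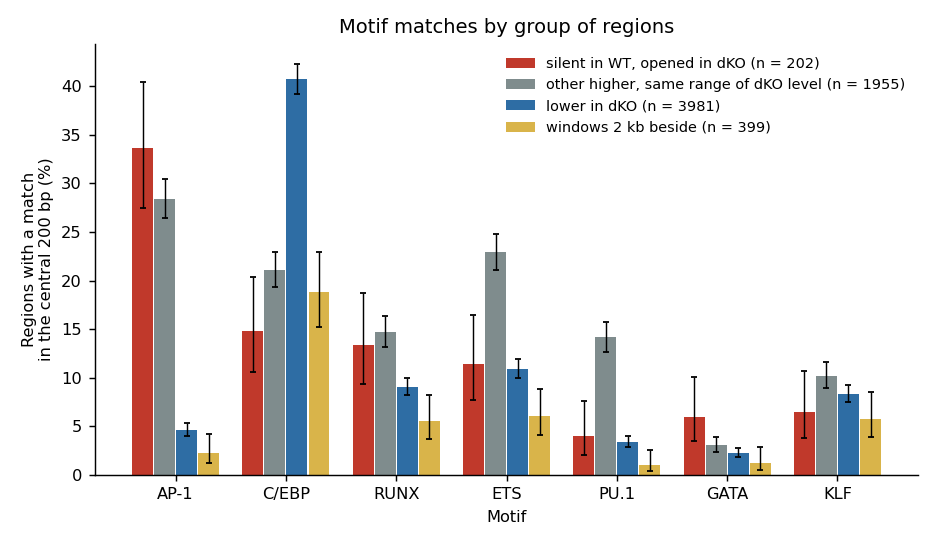
Bar chart of the share of regions with a motif match in the central 200 bp (y axis, percent, from 0) for 7 motifs (x axis) in 4 groups of regions or windows, with 95% Wilson intervals as error bars. The 202 regions (red) stand near the range-limited regions (grey) for AP-1 and RUNX, with 33.7% against 28.4% for AP-1, and below them for PU.1, with 3.96% against 14.2%.

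Because the 202 regions are the end of a scale, the motif shares were followed along the WT value at a fixed range of dKO value. AP-1 letters occurred in 33.3% of the 180 regions of the set in that range, in 40.5% (34.4 to 47.0) of the 227 regions with a WT value over 1.43 and up to 2, then in 29.7%, 25.9% and 22.1% of those up to 3, 4 and 5. The share thus fell with the WT value from the second step on, and the interval of the first step (26.9 to 40.5) overlapped that of the second. PU.1 letters occurred in 3.89% (1.90 to 7.81) of the 180 regions, in 11.0% (7.57 to 15.8) of the next step, and in 15.2%, 14.4% and 13.5% of the later ones. The low PU.1 share thus stood at the lowest step, with an interval that overlaps that of the next slightly and lies below those of the rest. C/EBP letters occurred in 15% (10.5 to 20.9) and 13.2% (9.42 to 18.2) of the lowest steps and in 21.2% (18.5 to 24.1) to 24.6% (19.6 to 30.4) of the later ones. The interval of the lowest step overlaps those of the later ones. GATA letters occurred in 11 of the 180 regions, or 6.11% (3.45 to 10.6), and in 2.46% to 3.27% of the others. The intervals of all other steps overlap that of the 180.

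**Figure D5:**
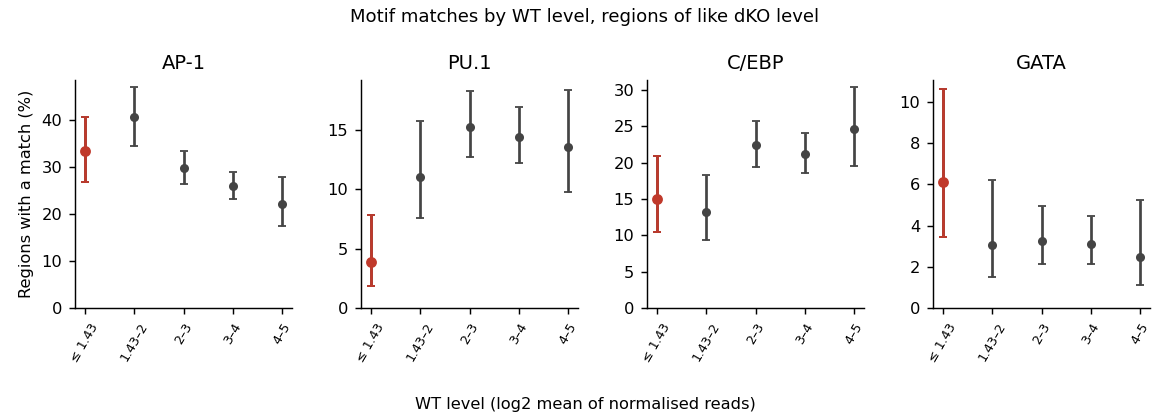
Share of regions with a motif match (y axis, percent, from 0) by WT value (x axis, log2 mean of normalised reads) in 4 panels, for regions whose dKO value lay between 4.09 and 5.79, with 95% Wilson intervals. The red point holds 180 of the 202 regions. It is lowest for PU.1, at 3.89% against 11.0% to 15.2%, and highest for GATA, at 6.11%, where its interval overlaps all the others.

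The labels were checked at the deleted genes. The region over the start site of Cebpa stood at 9.99 in WT and -0.15 in dKO, and that of Cebpb at 8.60 and 3.37. Reads cannot be placed on deleted DNA, and the share of each region that lies in deleted DNA is not given in the sources used here. The Cebpb region kept reads in dKO, above the lowest level. Both went in the direction of the dKO label.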

How the data were processed

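ATAC-seq libraries were made from 3 groups of 2 samples. Per the labels and the study's methods, the authors aligned reads to mm10 with Bowtie2, called peaks with MACS2 and compared WT with dKO in DiffBind 2.14.0, keeping regions past a corrected P-value. The handling of duplicates and of the Tn5 offset, and the merging of peaks, were not given in the sources used here. Duplicates would add reads to the low counts that these regions rest on. The 2 deposited files were 1 distinct table. Its deposited values are log2 means of normalised reads over the 2 libraries of a group. Its fold change, p-value and FDR columns hold the authors' own comparison and were not used. No depth and no value per library was at hand. Regions that did not differ are not listed, so none could serve as background.

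The 202 regions and the gene lists and motifs were chosen with earlier results of these data known. Named were the 20 highest in dKO, those in a gene list, genes with 2 regions, those within 1 kb of a protein-coding start site (the 15 highest in dKO), and 5 on each side of the threshold. Some regions that this rule names are not reported here. Start sites came from GENCODE M21 (nearest edge, any transcript), sequences from GRCm38.p6. In all 23 motifs were searched as exact letters on both strands, a search tested on simulated sequences. Wilson 95% intervals treat regions as independent and cover counting error only. Scripts used Python 3.11.15, pandas 2.3.3 and scipy 1.17.1. Regions are not replicates and no test was run.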

Additional observations from a re-analysis of the deposited data

How the results depend on the processing

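No paired analysis was possible because single libraries have no values in the table, and for the same reason no replicate could be left out. With the WT threshold at 1, 2 or 4 reads per library the set held 46, 107 or 371 regions. At 1 read the median dKO value was 5.01, the median width 317 bp and the RUNX share 8.70%. The median bound of the rise was 4.99, 3.99 or 2.99 on the log2 scale against 1, 2 or 4 reads. The share near a start site was 9.90% within 500 bp, 20.3% within 2 kb and 9.41% for protein-coding start sites. In the central 100 bp the AP-1 share was 25.2%, RUNX 8.91%, C/EBP 7.92%, GATA 2.97%, PU.1 2.48% and ETS 5.94%, and over the whole region ETS gave 16.8%. Limiting the other higher regions to the dKO range of the 202 gave 28.4% for AP-1, 14.7% for RUNX and 3.07% for GATA. Neighbours within 10 kb were found for 57 regions, and 18 regions fell in a gene list by the nearest protein-coding start site. Of the alternatives for the 18 further motifs, 52 of 72 values for the 202 regions and 10 of 18 for the other higher regions stayed within the interval of the value given or of its set. The cause of these moves was not tested. With the next WT value included, a choice made after seeing the data, the set held 219 regions. Without the lowest WT level, likewise added later, the AP-1 share was 34.6% and the PU.1 share 3.85%. The WT values of these regions are a few reads because the rule chose them so, and the depth behind them is unknown.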
